A study of Mus musculus with 3 samples.

Results

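The genes described here encode the machinery that licenses replication origins, unwinds and copies DNA, and supplies its nucleotides. They were chosen by name, as a list of 40 gene symbols, and take in every probe set whose platform annotation gives exactly 1 symbol from that list. All 40 genes were found, on 90 probe sets, among 18193 genes and 34945 probe sets with a single symbol. The cells were NIH3T3, an immortalised line of mouse embryonic fibroblasts, profiled on 3 single-colour oligonucleotide arrays in a series on RNA interference and resistance to oxidative stress. The RetSat shRNA cells (1 array, numbered 2) expressed a hairpin (shRNA) that targets Retsat, the gene of retinol saturase, and their label describes high resistance to t-BHP (tert-butyl hydroperoxide, a peroxide used to cause oxidative stress). Their medium and any treatment are not stated in the labels. The empty-vector cells (2 arrays, numbered 1 and 2) carried the vector without a hairpin, were grown in DMEM with 10% calf serum and are labelled as untreated, with basal expression. No label says whether an array stands for a clone, a pool or a separate culture.

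Before S phase, the origin recognition complex, CDC6 and CDT1 load the ring of MCM2 to MCM7 onto DNA, and geminin blocks CDT1 afterwards. CDC45, the GINS complex and MCM10 turn the loaded ring into an active helicase, and primase, the replicative polymerases, the PCNA clamp and its RFC loader then copy the strands. Cyclin E with its kinase and the transcription factor E2F1 drive entry into S phase, and many genes of this machinery are E2F targets whose mRNA rises late in G1 in cycling fibroblasts.

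Values are deposited probe set signals on a linear scale, already at a common level (trimmed mean 250 on each array). For each gene the brightest probe set was used, and differences are on the log2(signal + 10.2) scale, where 1 means 2-fold. A gene was tested when its mean log2 signal reached the median of all probe sets, which held for all 40 replication genes and for 10843 genes in total. The target of the hairpin was low on its array, with Retsat at 69.5 on RetSat shRNA, against 416 and 496 on empty vectors 1 and 2. RetSat shRNA and empty vector 2 were close and empty vector 1 was far from both. Over all tested genes the SD of the log2 difference was 0.754 between RetSat shRNA and empty vector 1, 0.336 between RetSat shRNA and empty vector 2, and 0.739 between the empty-vector arrays. The 3′ controls of Actb exceeded the 5′ ones by ratios of 1.65 on RetSat shRNA, 1.53 on empty vector 1 and 1.53 on empty vector 2, and for Gapdh the ratios were 0.931, 0.841 and 0.931, which puts the 3 arrays close together by this measure. All 10 fibroblast markers passed the filter, and their summed signal was 100912 on RetSat shRNA, 98200 on empty vector 1 and 99264 on empty vector 2. Markers of epithelial, endothelial, leukocyte and muscle cells read at most 107 on RetSat shRNA, 90.7 on empty vector 1 and 122 on empty vector 2.

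Promoters of some of the replication genes are shown first as examples, because E2F1 is itself on the list. RefSeq (GRCm38.p6) promoter windows ran from 250 bases before to 50 bases after a listed promoter start. They were matched by symbol for 32 of the 40 genes and gave 37 windows. A listed start does not always coincide with the start of the gene span used below. The Cdc6 window lies wholly inside its gene span, which starts at base 98907709. The span of Pola1, on the minus strand, ends at base 93632387, within its window. The E2F letters searched were TTTCCCGC, TTTCGCGC, TTTGCCGC and TTTGGCGC, and the other motif was the CCAAT box, each on both strands. Matches are printed in capitals, in the reading direction of the gene, so a match on the opposite strand appears reverse complemented. The first 4 windows belong to genes whose RetSat shRNA value lay below both empty-vector values, and the other two to genes that in addition were far higher on empty vector 1 than elsewhere. They lie at chr11:98907901-98908200 (plus strand) for Cdc6, chr1:20820263-20820562 (minus strand) for Mcm3, chr1:128359656-128359955 (minus strand) for Mcm6, chr5:151651159-151651458 (minus strand) for Rfc3, chrX:93632106-93632405 (minus strand) for Pola1 and chr7:102441445-102441744 (plus strand) for Rrm1.
Cdc6: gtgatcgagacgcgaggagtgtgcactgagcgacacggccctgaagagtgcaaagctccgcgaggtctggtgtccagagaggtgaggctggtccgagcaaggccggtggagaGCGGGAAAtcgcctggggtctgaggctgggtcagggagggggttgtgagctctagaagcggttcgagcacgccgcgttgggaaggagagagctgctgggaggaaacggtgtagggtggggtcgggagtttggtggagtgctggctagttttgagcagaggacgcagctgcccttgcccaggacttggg
Mcm3: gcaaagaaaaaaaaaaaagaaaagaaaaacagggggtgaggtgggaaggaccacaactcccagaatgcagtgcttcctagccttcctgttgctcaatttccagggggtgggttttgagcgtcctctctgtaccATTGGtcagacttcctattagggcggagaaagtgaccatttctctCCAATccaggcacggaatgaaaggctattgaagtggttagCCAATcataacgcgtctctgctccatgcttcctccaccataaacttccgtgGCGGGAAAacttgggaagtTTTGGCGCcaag
Mcm6: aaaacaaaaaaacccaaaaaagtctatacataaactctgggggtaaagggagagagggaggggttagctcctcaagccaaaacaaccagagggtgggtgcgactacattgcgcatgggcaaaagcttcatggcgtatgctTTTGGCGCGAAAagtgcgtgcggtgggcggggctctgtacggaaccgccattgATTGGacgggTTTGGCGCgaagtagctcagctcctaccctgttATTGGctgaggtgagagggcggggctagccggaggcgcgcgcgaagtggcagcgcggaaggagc
Rfc3: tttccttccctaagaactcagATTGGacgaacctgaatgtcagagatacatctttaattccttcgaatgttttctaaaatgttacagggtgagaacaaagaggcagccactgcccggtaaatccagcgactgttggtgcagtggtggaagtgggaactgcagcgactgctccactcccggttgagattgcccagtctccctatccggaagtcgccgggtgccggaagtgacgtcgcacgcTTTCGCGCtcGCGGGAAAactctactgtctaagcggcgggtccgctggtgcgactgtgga
Pola1: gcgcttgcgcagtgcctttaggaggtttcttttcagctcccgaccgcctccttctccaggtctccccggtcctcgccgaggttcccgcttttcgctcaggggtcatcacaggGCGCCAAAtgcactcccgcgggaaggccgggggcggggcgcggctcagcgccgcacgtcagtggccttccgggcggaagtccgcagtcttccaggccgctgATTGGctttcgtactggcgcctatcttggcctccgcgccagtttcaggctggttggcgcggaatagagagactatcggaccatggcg
Rrm1: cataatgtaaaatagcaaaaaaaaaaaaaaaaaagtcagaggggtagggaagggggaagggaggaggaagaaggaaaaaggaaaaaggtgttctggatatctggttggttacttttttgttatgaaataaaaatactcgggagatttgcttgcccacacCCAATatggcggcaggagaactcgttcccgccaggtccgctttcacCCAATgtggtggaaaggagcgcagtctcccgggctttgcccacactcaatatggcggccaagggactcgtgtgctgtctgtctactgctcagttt

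The Mcm6 window held 3 E2F matches, one pair of them overlapping, and those of Mcm3 and Rfc3 held 2 each. Cdc6 and Pola1 had 1 E2F match each, and Rrm1 had no E2F match in this window and 2 CCAAT boxes. Of the 37 windows of replication genes, 11 held an E2F match (29.7%), compared with 2.3% of 32851 windows of all genes. A CCAAT box was found in 21 of the 37 windows (56.8%), compared with 37.4% of all windows. Median GC content was 57.7% in the replication windows and 52.7% in all, so base composition differed as well. A single E2F match in the 37 windows overlapped a CCAAT box. Of the windows of genes with RetSat shRNA below both empty-vector arrays, 6 of 16 had an E2F match, and of those at least 2-fold higher on empty vector 1 than on empty vector 2, 1 of 7 did. The printed windows thus held E2F matches more often than these groups. Cdc45 lay 0.36 below the nearer empty-vector array on the log2 scale, and Rfc1 was 2.40 higher on empty vector 1 than on empty vector 2. The windows of Cdc45 and Rfc1, not printed, held no E2F match. A match describes letters in a window and is no sign of a bound site.

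Replication genes read slightly lower on RetSat shRNA than on the empty-vector arrays, and none of the differences passed the test. Of the 40 genes, 19 lay below both empty-vector arrays, compared with 25.4% of all tested genes, and 2 lay above both, compared with 34.4%. The other 19 lay between the empty-vector arrays. Such an order takes no account of size. Genes below both include some almost level with empty vector 2, such as Gmnn (log2 difference -0.006), Orc6 (-0.014) and Pola1 (-0.025). The median log2 difference of RetSat shRNA from empty vector 1 was -0.41, and its median difference from empty vector 2 was -0.15. All tested genes had medians of 0.14 and 0.00, so relative to them the replication genes stood at -0.55 and -0.15. No replication gene was at least 2-fold lower than both empty-vector arrays (0 of 40, background 0.498%) or at least 2-fold higher than both (0 of 40, background 0.0922%). In limma's moderated test 0 of 40 passed an adjusted p of 0.05 (background 0% of genes), with 0 of 40 at an unadjusted p under 0.05, and the lowest adjusted p among them was 0.9999. Only the empty-vector pair gives that fit its spread (1 residual degree of freedom), and the lone RetSat shRNA array is taken to vary like it. Retsat, the target of the hairpin, did not pass either, at log2 differences of -2.42 and -2.67 from empty vectors 1 and 2. The lack of calls among the replication genes is therefore no evidence that they were unchanged. With each array centred on its median, 14 replication genes lay below both arrays and 3 above, against 18.3% and 45.4% of all genes. With the lone RetSat shRNA array, variation between arrays and any difference in medium or treatment cannot be told apart from an effect of the hairpin. In these bulk samples, fewer cells in S phase and less mRNA per cell cannot be told apart either.

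**Figure D1:**
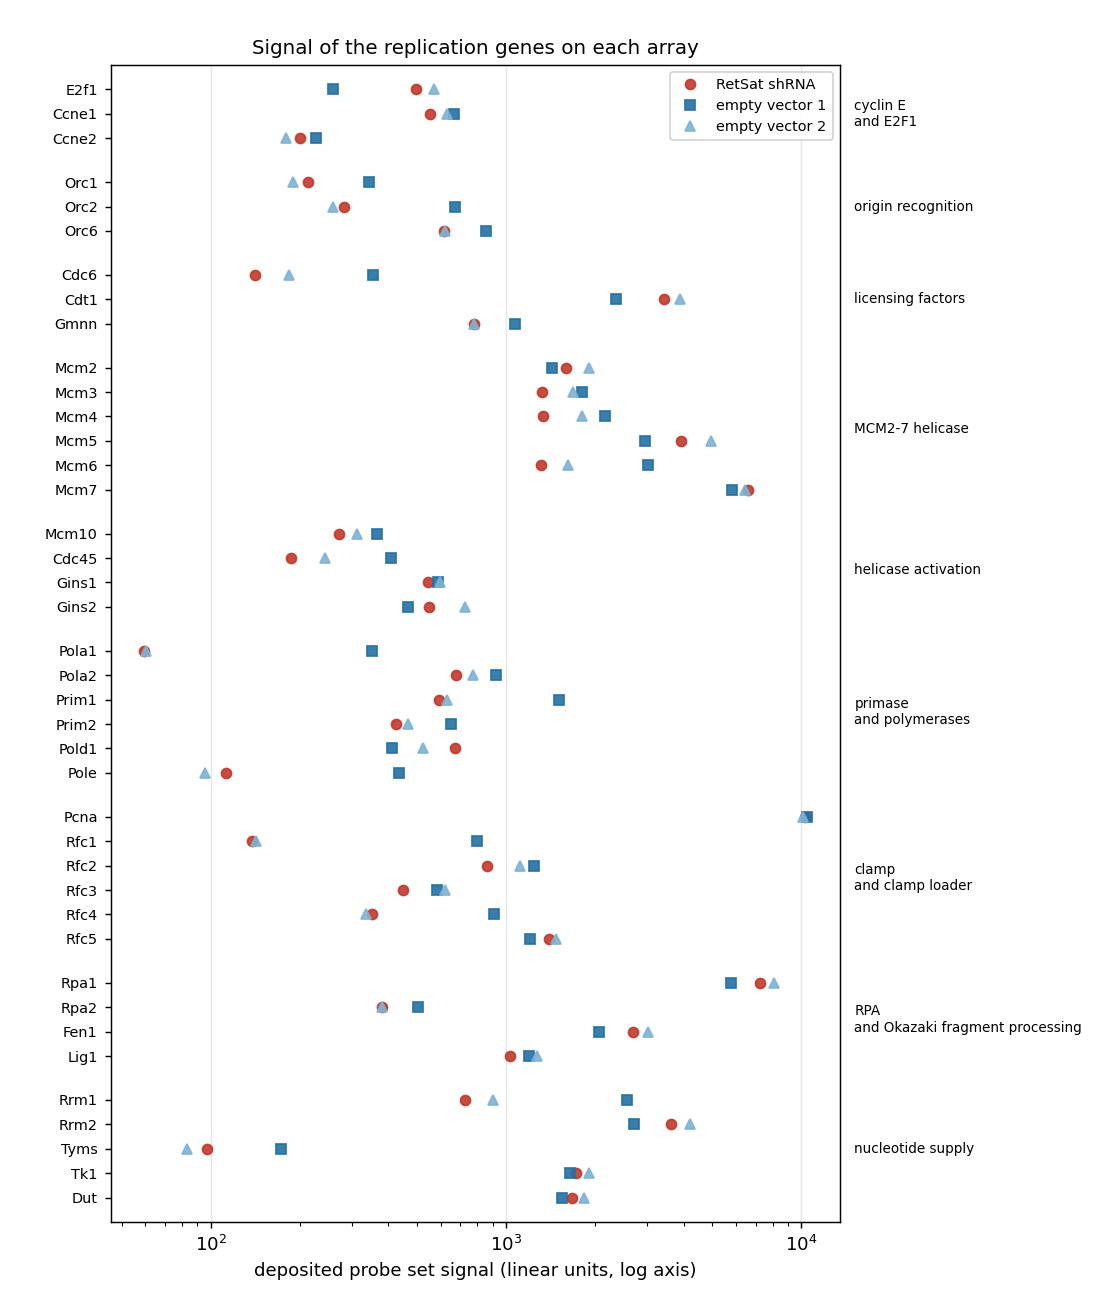
Deposited signal (x axis, linear units on a log axis) of the 40 replication genes, grouped by role, with 1 point per array (circle, RetSat shRNA, square, empty vector 1, triangle, empty vector 2). The circle and the triangle lie close together for most genes, and the square stands far to their right for Pola1, Pole, Rfc1 and Rrm1.

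The distance from each empty-vector array differed. Against empty vector 1, 10 of the 40 genes were at least 2-fold lower on RetSat shRNA (background 10.2%) and 0 were at least 2-fold higher (background 3.44%). Against empty vector 2, 0 were at least 2-fold lower (background 1.01%) and 0 at least 2-fold higher (background 0.719%). Direction against empty vector 2 was uneven all the same, with 30 of 40 genes lower on RetSat shRNA, compared with 49.99% of all tested genes. With each array centred on its median it was 26 of 40, compared with 37.93%. The differences from empty vector 2 ran from -0.47 (Rfc3) to 0.35 (Pold1), and those from empty vector 1 ran from -2.44 (Rfc1) to 0.90 (E2f1). Both comparisons share the RetSat shRNA array, and their values for a gene are therefore not independent.

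**Figure D2:**
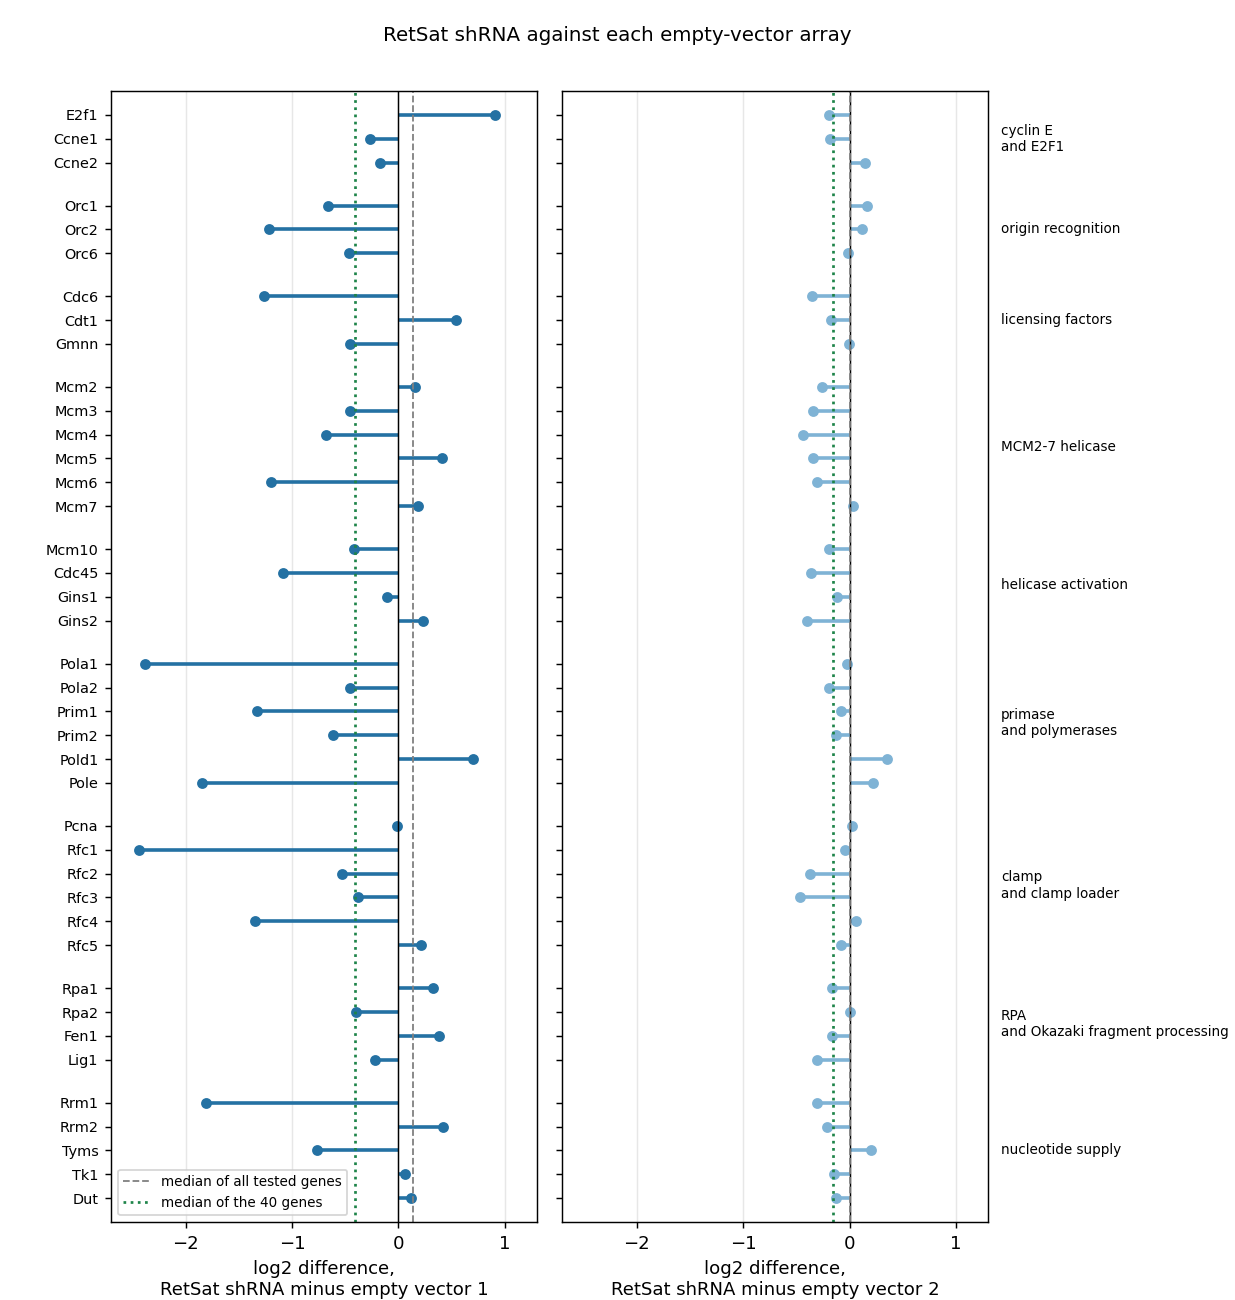
Log2 difference of RetSat shRNA from empty vector 1 (left) and empty vector 2 (right) for each of the 40 genes, with the median of the 40 genes (dotted) and of all tested genes (dashed). On the left the bars reach -2.44 and on the right none passes -0.47, and most bars on the right point to the lower side.

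The MCM2-7 ring, the replicative helicase, was the role with the lowest median difference from empty vector 2, -0.32, with 5 of 6 subunits lower (also 5 of 6 with arrays centred, and 6 of 6 after quantile normalization). With the mean of all probe sets that median was -0.26, and licensing factors were lower at -0.35. That mean also counts probe sets below the filter. One such probe set of Cdt1 read 3.0 on RetSat shRNA, against 12.4 and 36.1 on empty vectors 1 and 2. Mcm4 read 1338 on RetSat shRNA, against 2158 and 1811 on empty vectors 1 and 2. Its log2 difference from the mean of the empty-vector arrays was -0.56 (SE 0.504, limma adjusted p = 0.9999). Mcm3 read 1321 on RetSat shRNA, against 1813 and 1685. For both subunits the RetSat shRNA array was the lowest of the 3, and the empty-vector arrays were close together (0.25 and 0.10 apart on the log2 scale). Mcm6 was also lowest on RetSat shRNA at 1310, but the empty-vector arrays were 0.89 apart, at 3027 and 1623. Mcm2 (1594 on RetSat shRNA, against 1428 and 1906) and Mcm5 (3901, against 2944 and 4946) lay between the empty-vector arrays. Mcm7 was the subunit that lay above both, at 6605 on RetSat shRNA, against 5822 and 6467, a difference of 0.03 from empty vector 2. On the probe sets used, the 6 subunits thus did not share an order of the 3 arrays, although they form 1 ring. The order depended on the probe set, since another of Mcm5 read 1531 on RetSat shRNA, against 1732 and 1957, and so lay below both. A dim one of Mcm5 lay between. Without s_at and x_at probe sets, a choice made after the data were seen, 6 of 6 subunits were lower than on empty vector 2. Mcm2 kept its probe set there and still lay between the empty-vector arrays.

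Licensing factors read lower on RetSat shRNA than on empty vector 2 for all 3 genes as deposited, with a median difference of -0.17, and for 2 of 3 with arrays centred or quantile normalized. Cdc6, the ATPase that helps load the ring, read 142 on RetSat shRNA, against 354 and 184 on empty vectors 1 and 2. It was lowest on RetSat shRNA, with a log2 difference of -0.81 from the mean of the empty-vector arrays (SE 0.555, limma adjusted p = 0.9999), and the empty-vector arrays were 0.91 apart. Cdt1, the partner of CDC6 in loading, went the other way against empty vector 1, with 3427 on RetSat shRNA, against 2351 and 3869. Gmnn, which encodes the CDT1 inhibitor geminin, read 777 on RetSat shRNA, against 1072 and 780, so that RetSat shRNA and empty vector 2 were almost level. Cdc6 and Cdt1 act at the same step, and on empty vector 1 the first was higher and the second lower than on either other array.

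Origin recognition genes were near level between RetSat shRNA and empty vector 2 on the probe sets used. Orc1, the largest subunit of the complex, read 214 on RetSat shRNA, against 344 and 190. Orc2 read 283, against 672 and 261, and Orc6 read 617, against 856 and 624. All 3 were highest on empty vector 1, and RetSat shRNA and empty vector 2 differed by 0.16, 0.11 and -0.01 on the log2 scale. Their median difference from empty vector 2, 0.11, was the only one of the 9 role medians above 0 as deposited. With the mean of all probe sets in place of the brightest, that median was -0.10. Another probe set of Orc1 read 104 on RetSat shRNA, against 202 and 138, and a dim one of Orc2 read 25.1, against 126 and 55.0. Both of these lay below both empty-vector arrays. A brighter further probe set of Orc2 lay between, at 191, against 414 and 176.

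Helicase activation genes lay lower on RetSat shRNA than on empty vector 2 for all 4 members (median -0.28), and for 2 of 4 with the mean of all probe sets. Cdc45, the helicase cofactor, read 187 on RetSat shRNA, against 408 and 243, and was lowest on RetSat shRNA. Mcm10, which acts as the helicase starts, read 271, against 366 and 313, again lowest on RetSat shRNA. Of the 2 GINS genes on the list, Gins1 was nearly level at 546 on RetSat shRNA, against 588 and 596. Gins2 read 547 on RetSat shRNA, against 466 and 727, and so lay between the empty-vector arrays.

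Primase and polymerase genes had a median difference of 0.86 between the empty-vector arrays and small differences of RetSat shRNA from empty vector 2 (median -0.06, and 0.01 with arrays centred). Pola1, the catalytic subunit of polymerase alpha, read 59.3 on RetSat shRNA, against 352 and 60.5 on empty vectors 1 and 2. Pole, the catalytic subunit of polymerase epsilon, read 113 on RetSat shRNA, against 433 and 95.3. Prim1, the catalytic primase subunit, read 594 on RetSat shRNA, against 1512 and 631. On the probe sets used, RetSat shRNA and empty vector 2 were close in each of these 3 genes, and empty vector 1 was more than 2-fold higher than both. Another probe set of Prim1 read 435 on RetSat shRNA, against 873 and 299. RetSat shRNA was 0.53 above empty vector 2 on the log2 scale there. The partner subunits were nearer to each other on the 3 arrays, with Pola2 at 675 on RetSat shRNA, against 927 and 775. Prim2, the accessory primase subunit, read 424 on RetSat shRNA, against 654 and 466. Pold1, the catalytic subunit of polymerase delta, was highest on RetSat shRNA (672), against 410 and 524 on empty vectors 1 and 2, with a log2 difference of 0.53 from their mean (SE 0.508, limma adjusted p = 0.9999).

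The PCNA clamp, which holds polymerases on DNA, was level, with Pcna at 10310 on RetSat shRNA, against 10420 and 10141. Genes of its loader were not. Rfc1, the large subunit, read 138 on RetSat shRNA, against 795 and 143, and Rfc4 read 351, against 910 and 336. For these subunits empty vector 1 was high and the other arrays were close. Rfc3 read 447 on RetSat shRNA, against 584 and 621, the lowest of the 3 arrays with the empty-vector arrays 0.09 apart. Rfc2 likewise was lowest on RetSat shRNA at 860, against 1243 and 1115. Rfc5 read 1396 on RetSat shRNA, against 1206 and 1481, and lay between. On the probe sets used, the 5 loader subunits thus did not share an order of the arrays, although they work as 1 complex. The order depended on the probe set for some of them. Another of Rfc4 read 252 on RetSat shRNA, against 581 and 292, below both, and another of Rfc2 read 302, against 207 and 166, above both.

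Genes of single-strand binding and of Okazaki fragment processing differed by less than 2-fold between any pair of arrays on the probe sets used. Lig1, the ligase that seals the fragments, read 1029 on RetSat shRNA, against 1199 and 1273, and was the one gene of these 4 lowest on RetSat shRNA. Fen1, the flap nuclease, read 2697, against 2072 and 3022. The single-strand binding genes read 7225, against 5781 and 8098, for Rpa1, and 381, against 505 and 380, for Rpa2. A dimmer probe set of Rpa2 read 158, against 330 and 200, which is just over 2-fold from empty vector 1. On the probe sets used, all but Lig1 lay between the empty-vector arrays.

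Among nucleotide supply genes, the subunits of one enzyme differed in their order of the arrays on the probe sets used. Rrm1, the large subunit of ribonucleotide reductase, read 725 on RetSat shRNA, against 2570 and 902 on empty vectors 1 and 2. Rrm2, its S phase subunit, read 3626 on RetSat shRNA, against 2716 and 4203. Rrm1 was thus highest on empty vector 1 and Rrm2 lowest there, and both were lower on RetSat shRNA than on empty vector 2 (-0.31 and -0.21). The order of Rrm2 depended on its probe set, since another read 1085 on RetSat shRNA, against 1539 and 1126, and was highest on empty vector 1 like Rrm1. Tyms, thymidylate synthase, read 97.5 on RetSat shRNA, against 173 and 83.4. A probe set that names Tyms together with its pseudogene was left out by the rule of 1 symbol. Tk1, thymidine kinase, read 1723 on RetSat shRNA, against 1653 and 1906. Dut, which removes dUTP, read 1678, against 1547 and 1833. For Tk1 and Dut the 3 arrays lay within 0.25 of each other on the log2 scale.

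The regulators of entry into S phase did not move as one. E2f1 read 494 on RetSat shRNA, against 259 and 568 on empty vectors 1 and 2. On the probe sets used, it was the 1 gene of the 40 at least 2-fold lower on empty vector 1 than on empty vector 2. Another probe set of E2f1 above the filter read 365 on RetSat shRNA, against 194 and 312, and so lay above both. The empty-vector arrays differed there by -0.66 on the log2 scale, less than 2-fold. Ccne1, which encodes cyclin E1, read 552 on RetSat shRNA, against 667 and 630. Ccne2, which encodes cyclin E2, read 201, against 228 and 181. Differences of Ccne1 and Ccne2 from either empty-vector array were at most 0.27 in size.

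The empty-vector arrays differed from each other by more than RetSat shRNA did from empty vector 2. On empty vector 1, 7 of the 40 genes were at least 2-fold higher than on empty vector 2 (background 9.32%), and 1 was at least 2-fold lower (background 3.41%). The higher genes were Rfc1 (log2 difference 2.40), Pola1 (2.36), Pole (2.07), Rrm1 (1.5), Rfc4 (1.41), Orc2 (1.33) and Prim1 (1.25), and the lower one was E2f1 (-1.10). The median of the 40 was 0.19, and that of all tested genes was -0.14. The SD of the log2 difference over the 40 genes was 0.803 between RetSat shRNA and empty vector 1, 0.197 between RetSat shRNA and empty vector 2 and 0.845 between the empty-vector arrays. The empty-vector arrays were at least 2-fold apart in 8 of the 40 genes (background 12.7%). In 32 of the 40, RetSat shRNA was nearer to empty vector 2 than the empty-vector arrays were to each other (background 75.4%).

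**Figure D3:**
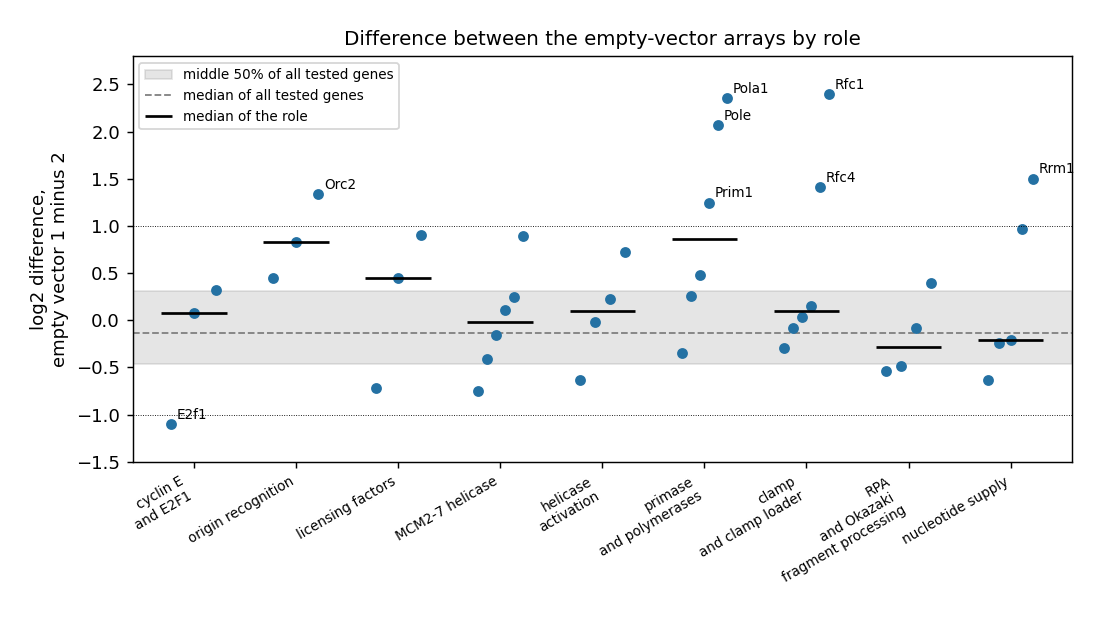
Log2 difference of empty vector 1 minus empty vector 2 for each gene, by role, with the median of each role (black line) and the median and middle 50% of all tested genes (grey). Names mark genes at least 2-fold apart. Polymerase, loader, origin and nucleotide genes reach 1.25 to 2.40, and E2f1 lies at -1.10.

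Genes that stood highest on empty vector 1 included the ones with long spans on the genome. Pola1 spans 327622 bases on chromosome X, Rfc1 76766 bases on chromosome 5 and Pole 51150 bases on chromosome 5 (GRCm38.p6). Tested genes were put in 4 classes of equal size by span. In the shortest class (up to 9913 bases) the 10 replication genes had a median difference between the empty-vector arrays of -0.22, and all 2708 genes had -0.29. In class 2 the 17 replication genes had 0.16 and all genes -0.20, and in class 3 the 10 replication genes had 0.86 and all genes -0.04. The 3 replication genes in the longest class had a median of 2.36, and all 2706 genes had 0.08. Among those 3, Prim2 spans 216001 bases and differed by only 0.48. Over the 40 genes Spearman's rho between span and the difference was 0.579, and over 10825 tested genes it was 0.254. These are descriptions across genes measured on the same 2 arrays, and the part of span in the difference was not tested. For RetSat shRNA minus empty vector 2 the medians of the replication genes were -0.17, -0.14, -0.18 and -0.04 from the shortest to the longest class. Those of all tested genes were 0.046, 0.0090, -0.012 and -0.044, lower with each longer class.

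**Figure D4:**
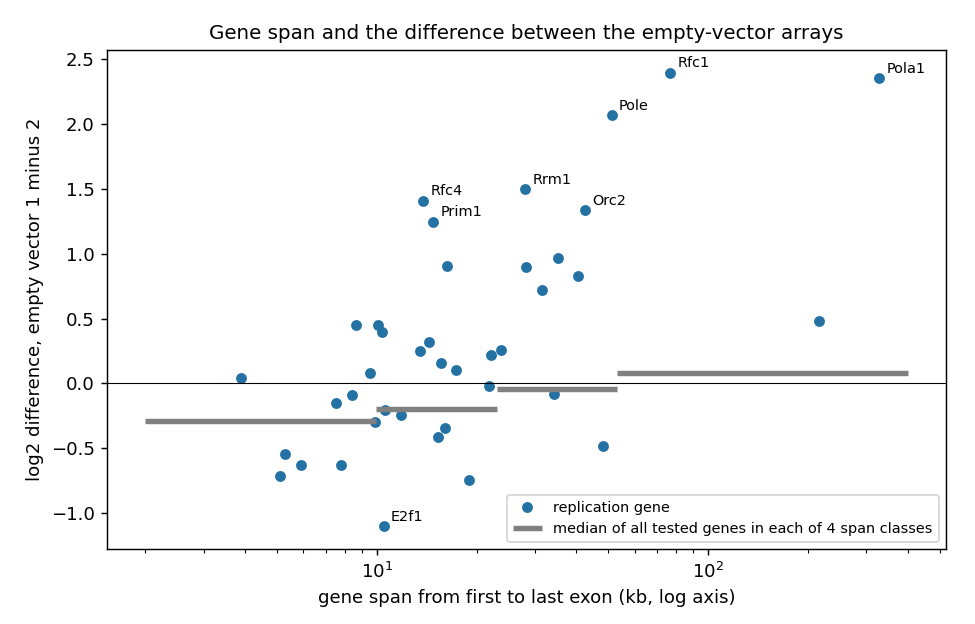
Span of each replication gene (x axis, kb on a log axis) against its log2 difference of empty vector 1 minus empty vector 2 (y axis). Grey bars give the median of all tested genes in each of 4 classes of span, -0.29, -0.20, -0.04 and 0.08. Pola1, Rfc1 and Pole lie at the upper right, and Prim2 is the point at the far right near 0.48.

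Probe sets of one gene often disagreed, which bears on how each gene is read. Of the 90 probe sets 78 passed the filter, and 28 genes had several. The direction of RetSat shRNA against empty vector 1 was shared by all of a gene's probe sets in 14 of the 28, against empty vector 2 in 12, and between the empty-vector arrays in 16. The 2 genes above both empty-vector arrays were not so on another of their probe sets. Pold1 read 354 on RetSat shRNA on its other probe set, against 377 and 388, and Mcm7 read 2885 on another, against 3381 and 3162. Both had been represented by probe sets that may read several transcripts (names ending in x_at or s_at), as were 8 of the 40 genes in all. Without such probe sets, a choice made after the data were seen, 22 genes lay below both arrays and 0 above both.

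The 19 genes below both arrays were not all so on their further probe sets. Of these genes 12 had a further probe set above the filter, 17 in all, and 6 of the 17 lay below both arrays, 7 between them and 4 above both. The 4 above both belonged to Cdc45, Rfc2, Prim2 and Rrm1. Cdc45 read 77.4 on RetSat shRNA there, against 31.2 and 52.9, and Rfc2 read 302, against 207 and 166. The probe set of Prim2 above both was nearly level, at 485 on RetSat shRNA, against 446 and 474. On a further probe set Mcm6 read 767 on RetSat shRNA, against 1275 and 881, and Rfc3 read 375, against 592 and 420. Mcm3 had 5 probe sets above the filter, and all 5 read lower on RetSat shRNA than on empty vector 2, while 1 of them read higher than on empty vector 1. Another of them read 126 on RetSat shRNA, against 569 and 177, a far wider gap between the empty-vector arrays than on the probe set used. The other probe set of Mcm4 read 1255 on RetSat shRNA, against 1120 and 1380, and so lay between the empty-vector arrays there. A further probe set of Rrm1 read 130 on RetSat shRNA, against 1859 and 214, and a dim one read 59.3, against 42.8 and 49.1. A further probe set of Rfc1 read 80.1 on RetSat shRNA, against 739 and 46.9. Rrm1, Rfc1 and Mcm3 thus showed gaps between the empty-vector arrays whose size depended on the probe set.

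Other genes of the same pathway were taken from 7 lists, and their difference from the 40 genes was not tested. Of 68 tested, 25 lay below both empty-vector arrays on RetSat shRNA (36.8%) and 13 above both (19.1%), against the backgrounds of 25.4% and 34.4%. None of the 68 passed limma's adjusted p of 0.05, 0 had an unadjusted p under 0.05, and 0 were 2-fold from both arrays in the same direction. Polymerase and clamp genes outside the list of 40 were below both in 8 of 14, among them Pold3, a polymerase delta subunit (120 on RetSat shRNA, against 159 and 165), Dna2, a nuclease and helicase (232, against 340 and 280), and Pole3, a polymerase epsilon subunit (888, against 1273 and 1045). Fork and firing genes were below both in 4 of 10, with Clspn, the fork adaptor claspin, at 168 on RetSat shRNA, against 642 and 219. In the same list Donson was above both, at 296 on RetSat shRNA, against 120 and 230. Chromatin replication genes were below both in 3 of 5, with Slbp, the histone mRNA binding protein, at 1734, against 2040 and 1961. G1/S regulators were below both in 4 of 12, with the repressor E2f7 at 418, against 501 and 542. Origin and licensing genes were below both in 2 of 8, with Cdc7, the kinase that fires origins, at 333 on RetSat shRNA, against 814 and 388. Purine synthesis genes were below both in 3 of 8, with Adsl, adenylosuccinate lyase, at 275 on RetSat shRNA, against 721 and 313.

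Deoxynucleotide genes outside the list of 40 ran the other way. Of 11 tested, 7 lay above both empty-vector arrays (63.6%, background 34.4%) and 1 below both (9.09%, background 25.4%). The median difference of the 11 from empty vector 2 was only 0.05, so several of them were near level with that array. Rrm2b, the ribonucleotide reductase subunit induced by p53, read 225 on RetSat shRNA, against 106 and 154. Tk2, the mitochondrial thymidine kinase, read 257, against 156 and 198, and Dctd, dCMP deaminase, read 808, against 647 and 738. Rrm2b also stands on the list of p53 targets. Its order of the arrays was thus the opposite of that of Rrm1, which was lowest on RetSat shRNA.

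Mitotic genes and p53 targets were the nearest lists for comparison. Against empty vector 2 the medians were -0.15 for the 40 replication genes, -0.08 for 25 mitotic genes, 0.28 for 14 p53 targets and 0.00 for all tested genes. Between the empty-vector arrays (1 minus 2) they were 0.19, 1.77, -0.27 and -0.14. At least 2-fold higher on empty vector 1 than on empty vector 2 were 7 of 40 replication genes, 15 of 25 mitotic genes and 2 of 14 p53 targets (background 9.32%). Mitotic genes lay below both empty-vector arrays on RetSat shRNA in 15 of 25 cases (background 25.4%). Among them Cenpf, a kinetochore protein, read 66.0 on RetSat shRNA, against 1280 and 114. The p53 targets lay above both in 9 of 14 (background 34.4%). Among them Cdkn1a, an inhibitor of the kinases that start S phase, read 2229 on RetSat shRNA, against 957 and 1640. No difference between these lists was tested.

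**Figure D5:**
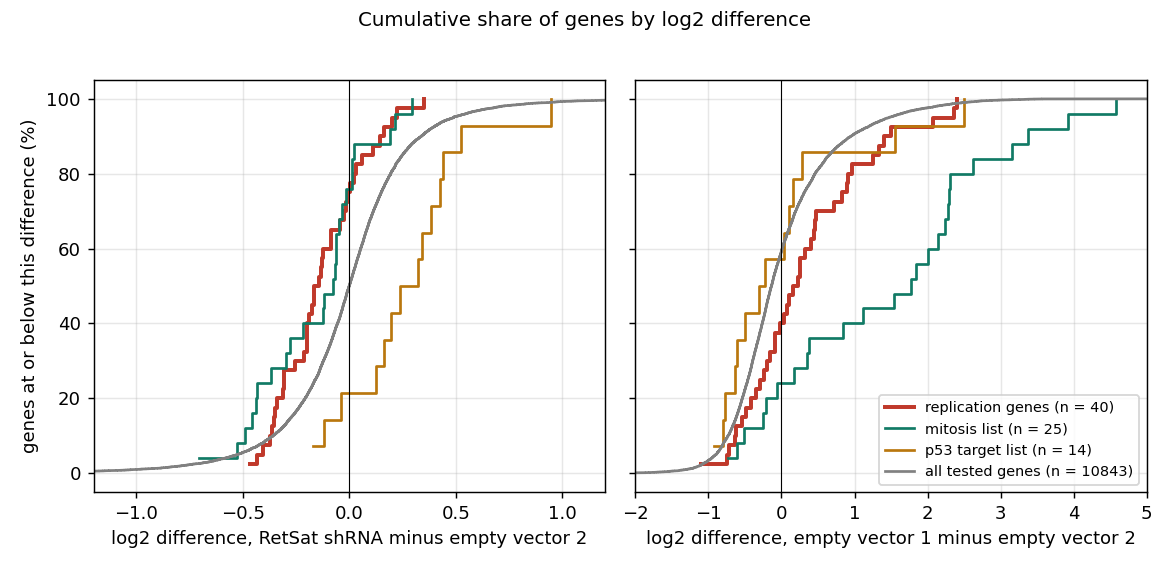
Cumulative share of genes (y axis, percent) by log2 difference, for RetSat shRNA minus empty vector 2 (left) and empty vector 1 minus empty vector 2 (right), in 40 replication genes, 25 mitotic genes, 14 p53 targets and all 10843 tested genes. On the left 30 of 40 replication genes lie below 0, and 5420 of the 10843 tested genes do. On the right it lies far to the left of the mitotic curve, whose median is 1.77.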

How the data were processed

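Total RNA of 3 cell samples was labelled with biotin, per the labels' protocols. The authors deposited linear probe set intensities, whose 2% trimmed mean was 250 on each array. Which software made them is not stated. Detection calls were not used, and the small number of arrays limits the precision.

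Of 45101 probe sets, 34945 carried a single gene symbol in the platform annotation. The offset of 10.2, added before log2, is the 25th percentile of all values. Genes were fitted in limma 3.58.1 (R 4.3.3), two-sided, with Benjamini-Hochberg adjustment over 10843 genes and a threshold of 0.05. The script was tested first on simulated data, with a spread common to all genes and narrower than that between the empty-vector arrays. That run checked the script and not its power on these data. The labels do not say that the empty-vector arrays are separate cultures, so the p-values may reflect technical spread only. Beside the fit stand the order of the arrays and a rule of size, 2-fold or more from each empty-vector array.

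The members, lists and tests were chosen with earlier results of these data known. All 40 members are named. At most 4 genes of any other list are named, in the order of their smaller distance from an empty-vector array, among genes on the same side of both. Alternatives changed the offset (1 and 50), the filter, the scaling, the choice of probe set, the variance prior and the arrays used. The mean of all probe sets of a gene took in those below the filter with equal weight. Promoter windows came from RefSeq (GRCm38.p6).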

Additional observations from a re-analysis of the deposited data

How the results depend on the processing

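No replication gene passed limma's threshold under any alternative run. With a robust variance prior 2 of 40 had an unadjusted p under 0.05, and with the filter at the 75th percentile 1 did. Over all tested genes 7 passed the adjusted threshold with the robust prior and 1 with arrays centred. The counts below both arrays (14 to 22 over all settings that keep the 3 arrays) and the medians over all 40 genes kept their direction, and the offsets of 1 and 50 and the absence of a filter turned no gene. Median differences from empty vector 2 turned for some roles: with arrays centred, primase and polymerases (0.012) and clamp and loader (0.0043), and with the mean of all probe sets, primase and polymerases (0.11), cyclin E and E2F1 (0.14) and origin recognition (-0.10). Without s_at and x_at probe sets, an alternative chosen after seeing the data, 0 genes lay above both empty-vector arrays.

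Differences from the empty-vector mean changed sign for some genes, and the cause was not tested. Most of these differences were small with the main settings, but those of Cdc45 (-0.72), Pold1 (0.53) and Rfc2 (-0.45) were among them. With arrays centred on their medians the genes that turned were Mcm2 (0.040), Ccne2 (0.075), Gins2 (0.000828), Tk1 (0.048) and Dut (0.084). After quantile normalization they were Mcm5 (-0.069), Mcm7 (-0.014), Pcna (-0.15), Ccne2 (0.089) and Rpa1 (-0.072). With the mean of all probe sets they were Mcm5 (-0.032), Rrm2 (-0.067), Cdt1 (-0.33), Cdc45 (0.027), Rfc2 (0.14), Fen1 (-0.055) and Dut (0.071). Without s_at and x_at probe sets they were Mcm5 (-0.26), Mcm7 (-0.18), Rrm2 (-0.025), Gins2 (0.082), Pold1 (-0.11) and Fen1 (-0.22).

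Leaving out one empty-vector array leaves a single pair and no test. Below the remaining array lay 30 genes without empty vector 1 and 27 without empty vector 2, and above it 10 and 13. At least 2-fold lower were 0 genes without empty vector 1 and 10 without empty vector 2, and the median difference was -0.15 and -0.41. No paired analysis was possible because the groups share only 1 replicate number. The RetSat shRNA array has no replicate, so leaving it out leaves no comparison.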
